A study of Mus musculus with 12 samples.

Results

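MC38 cells, a mouse colorectal cancer line, were sequenced as a 2 by 2 design: untreated cells, the drug nintedanib (3 µM), X-rays (8 Gy), or drug and X-rays together, with 3 libraries in each of the 4 groups. The labels give 24 hours for each treatment. What was examined here is whether the effects of drug and radiation added up in the combination. All 12 libraries entered, and 13012 of the 54532 genes in the table were tested, namely those with an FPKM (fragments scaled to gene length and library size) of at least 1 in at least 3 libraries. At the edge of that filter, 327 genes reached this level in exactly 3 libraries and 447 in exactly 2.

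The measure throughout is the interaction, (combination − radiation) − (nintedanib − control), on log2(FPKM + 1). It is 0 where the log2 effects of both treatments add up, that is, where their fold changes multiply. A gene lowered by both treatments has an interaction above 0 if the combination lowered it by less than the sum, and a gene raised by both has one below 0 if the combination raised it by less. A gene was called at an adjusted p under 0.05 (limma, Benjamini-Hochberg over all genes tested).

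Nintedanib blocks the kinase activity of VEGF, FGF and PDGF receptors, which signal through the RAS-ERK cascade to immediate early genes such as Egr1 and to MYC. X-rays break DNA, and cells with unrepaired breaks stop at the cell cycle checkpoints, among them the G2 checkpoint before mitosis. Both signalling and damage act on cell growth, protein synthesis and the cell cycle, so a gene can lie downstream of either treatment.

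Library sizes were 16103528 to 18196615 fragments. Nintedanib library 3 stood apart in having 0.029% of its fragments in genes under 200 bases (0.101 to 0.212% elsewhere) and 2.12% in mitochondrial genes (1.23 to 1.64% elsewhere). The mesenchymal markers were all expressed (10 of 10), while Epcam, 1 of the 12 epithelial markers, was at 0 in every library. Leukocyte markers summed to 3.99 to 4.87 FPKM in controls and 14.9 to 15.3 under nintedanib. They summed to 5.02 to 6.02 after radiation and 17.7 to 20.3 in the combination. Of these 12 markers 2 were expressed, Cd68 (3.55 to 19.5 FPKM over all libraries) and Lyz2 (at most 1.56). Ptprc was at most 0.03, and Cd3e and Tyrobp were at 0. Epithelial markers summed to 5.16 to 5.99, 6.86 to 9.69, 6.90 to 7.42 and 11.7 to 13.9 FPKM in the same order of groups. Of these 12 markers 2 were expressed, Cdh1 (4.12 to 8.73 FPKM) and Krt19 (0.62 to 4.81). The part of leukocyte and epithelial markers in any result was not tested. In bulk RNA, fewer cells of a kind and less RNA per cell cannot be told apart, and p-values measure the spread between 3 cultures per group.

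Of the 13012 genes tested, 1 departed from additivity past the threshold. That gene was Egr1 (0.00769% of genes tested), which both treatments lowered on average. No gene was called below 0 in this fit, though 1 to 11 genes were in some other settings. At an unadjusted p under 0.05, 1021 genes lay above 0 (7.85%) and 664 below (5.1%), together 12.9%. Without combination library 1 the 1685 genes of both directions became 2529. The second smallest adjusted p was 0.0569, and 12 genes had one under 0.1. The interaction had a median of 0.01 over all genes, and its 5th and 95th percentiles were −0.40 and 0.50. Of the unadjusted genes 60.6% lay above 0, but 24.4% did so when the libraries were rescaled to a common FPKM sum, which moved the median of all genes to −0.10. The split was 57.8% under rescaling by median ratios and 42.9% under rescaling by fragment totals. Nintedanib library 3 had 0.227% of its FPKM sum in Gm23935 and the other libraries 4.48 to 10.6%. What this share contributes to the shift under common-sum rescaling was not tested.

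A p that misses the threshold does not show additivity, so the size of the departure was bounded as well. For 6394 genes (49.1%) the interaction was within 0.5 of 0 in either direction, by 2 one-sided tests at an adjusted p under 0.05. This is a departure of less than 1.41-fold in FPKM + 1, and in FPKM itself that of a low gene can be larger. With 0.1 added to the FPKM in place of 1, 4081 genes were bounded. For 6617 genes neither a departure nor a bound of 0.5 was reached in the main fit. The 95% interval of the interaction reached a median of 0.33 to either side, and 0.41 for genes under 5 FPKM, of which 32.8% were bounded. Between 5 and 20 FPKM 59.0% were bounded, and over 100 FPKM 38.0%.

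The size of the average effects sets these departures in proportion. Averaged over irradiated and unirradiated cells, nintedanib raised 3207 genes (24.6%) and lowered 3455 (26.6%). Averaged over cells with and without drug, radiation raised 1303 genes (10%) and lowered 1575 (12.1%). Counted singly, nintedanib changed 5419 genes in unirradiated cells (41.6%) and 4478 in irradiated cells (34.4%). Radiation changed 2334 genes without the drug (17.9%) and 722 with it (5.55%). The last pair of counts depended on single libraries. For radiation without drug, 1333 and 1250 genes passed without control library 2 or 3, and 1523 and 1145 without radiation library 1 or 2. For radiation with drug, 357 and 453 passed without nintedanib library 2 or 3, and 269 and 432 without combination library 2 or 3.

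The effect of nintedanib in unirradiated cells (nintedanib against control) and in irradiated cells (combination against radiation) come from separate libraries. Across the 13012 genes they correlated with Pearson's r = 0.75, and the SD of the effect was 0.47 without and 0.41 with radiation. Genes are not independent replicates, and r was 0.60 to 0.85 over the other settings. Both tests passed for 3422 genes, 63.1% of the first list and 76.4% of the second, and 6 of them had opposite signs. The 286 genes that nintedanib lowered at least 2-fold in unirradiated cells had a median of −1.25 there and −0.89 in irradiated cells, and the 213 it raised had medians of 1.23 and 1.07. A list chosen in 1 arm tends to be less extreme in the other, and in the other order the 143 genes lowered in irradiated cells had a median of −1.23 there and −1.31 in unirradiated cells.

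The effects of radiation without drug and with drug were less alike, with r = 0.40 (0.28 to 0.54 over the other settings) and SDs of 0.30 and 0.26. Both tests passed for 494 genes, 21.2% and 68.4% of the lists, 3 with opposite signs. The 54 genes that radiation raised at least 2-fold without drug had a median of 1.16, and of 0.72 with drug. The 21 it lowered had medians of −1.31 and −0.36. Selected in the other order, 21 raised genes had medians of 1.17 with drug and 0.95 without, and 8 lowered genes had −1.38 with drug and 0.13 without.

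**Figure D1:**
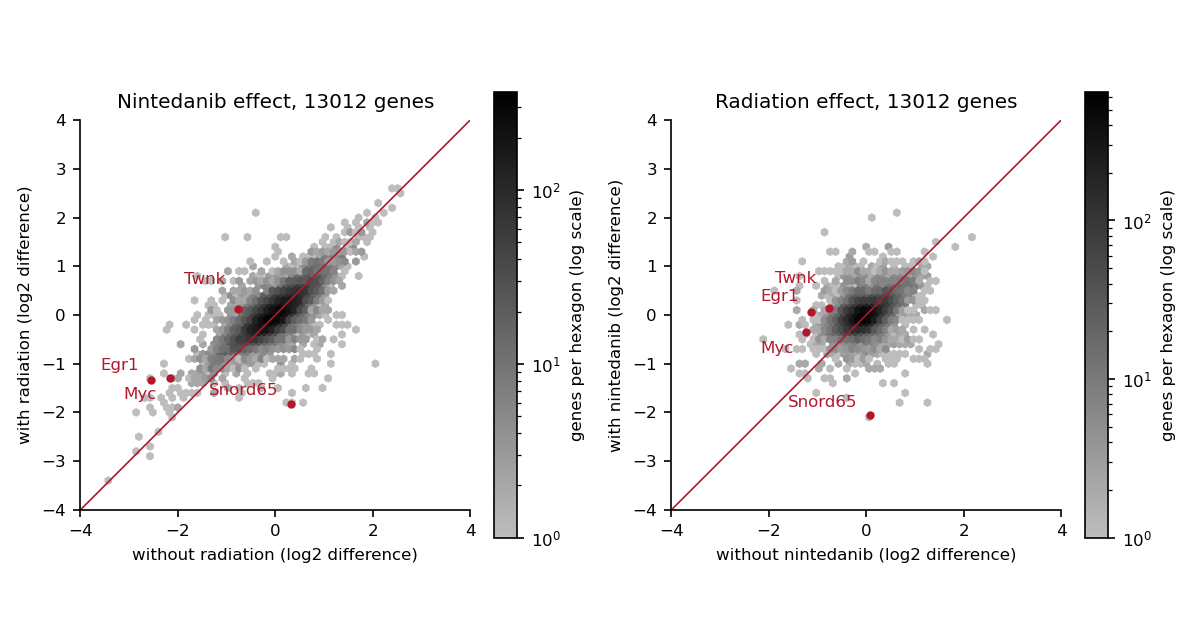
Log2 difference of each of the 13012 genes for nintedanib without (x) and with radiation (y), left, and for radiation without (x) and with nintedanib (y), right, with shading by number of genes per hexagon on a log scale and a red line of equal effects. The left cloud lies along the line (r = 0.75), the right one less so (r = 0.40), and Egr1, Myc, Twnk and Snord65 are marked in red.

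Egr1, a zinc finger transcription factor induced by ERK within minutes of growth factor stimulation, was the 1 called gene (ENSMUSG00000038418, GRCm38 chromosome 18, 34859823 to 34864984, plus strand). Its FPKM was 9.24, 8.00 and 9.13 in controls, 0.60, 0.78 and 0.65 under nintedanib, 2.94, 3.51 and 3.96 after radiation and 0.74, 0.79 and 0.74 in the combination. Each single treatment thus gave values under all controls, while the combination lay at the level of the drug alone. Behind these values stood 621 to 707 fragments in controls, 48 to 62 under nintedanib, 216 to 316 after radiation and 59 to 63 in the combination.

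The nintedanib effect on Egr1 was −2.55 (log2) in unirradiated and −1.34 in irradiated cells. The radiation effect was −1.14 without the drug and 0.07 with it. The interaction was 1.21 (SE 0.14, 95% interval 0.91 to 1.51, adjusted p = 0.0281, limma). The sum of the single effects lay at −0.24 FPKM, a level that no library can have. On plain FPKM, the product of the single fold changes gave 0.266 and the combination had 0.758, a ratio of 2.85. The interaction was 1.52 on recovered fragments (voom, adjusted p = 0.0468). The call was made in 11 of 23 other settings on the log scale. It was lost with a pseudocount of 0.1 (adjusted p = 0.0638), with the replicate block (0.176) and with rescaling by fragment totals (0.0520), and it was kept in 3 of 12 fits that left out 1 library. It was lost without control library 1, 2 or 3, nintedanib library 2 or 3, radiation library 1 or 2, or combination library 2 or 3, with values of 1.12 to 1.28 and adjusted p of 0.0237 to 0.212 over all 12. A sum below 0 FPKM occurred for 47 of the genes tested.

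Myc, the transcription factor that drives ribosome production and growth, came next (ENSMUSG00000022346, chromosome 15, 61985391 to 61990374, plus strand). It had 170.0, 176 and 182 FPKM in controls, 41.2, 37.9 and 36.1 under nintedanib, 74.0, 68.9 and 79.6 after radiation and 26.7, 32.4 and 30.2 in the combination. The 4 groups did not overlap, and the combination was the lowest. The product of the single fold changes gave 16.2 FPKM and the combination had 29.8. The interaction was 0.88 (SE 0.12, adjusted p = 0.0569), so Myc did not pass the threshold. It passed in 8 of 23 other settings on the log scale, with values of 0.74 to 0.95.

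Twnk encodes the helicase of the mitochondrial replication fork. Its FPKM was 15.3, 16.2 and 15.6 in controls, 9.61, 9.0 and 7.76 under nintedanib, 8.36, 9.13 and 8.87 after radiation and 8.45, 10.4 and 10.5 in the combination. All 9 treated libraries lay below the controls, and the 3 treated groups overlapped one another. The interaction was 0.91 (SE 0.13, adjusted p = 0.0569). Either treatment gave −0.77 alone, and the combination −0.64.

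Atf3, a stress-induced transcription factor, had 47.3, 56.9 and 48.7 FPKM in controls, 13.6, 14.2 and 14.4 under nintedanib, 32.0, 27.3 and 29.1 after radiation and 14.1, 17.2 and 14.5 in the combination (interaction 0.88, adjusted p = 0.0814). Chka, the choline kinase that starts phosphatidylcholine synthesis, had 27.2, 26.6 and 27.8, then 6.17, 7.20 and 6.41, then 16.6, 16.5 and 17.9, and 7.08, 7.03 and 6.07 in the same order (interaction 0.68, adjusted p = 0.0814). For Atf3 and Chka the combination overlapped the drug alone, as for Egr1. Trim16, a ubiquitin ligase of the stress response, had 23.1 to 25.05 FPKM in controls, 11.5 to 12.9 under nintedanib, 17.7 to 18.3 after radiation and 13.1 to 13.9 in the combination (interaction 0.53, adjusted p = 0.0814). Its combination lay just above the drug alone.

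For a second group the combination lay near both single treatments. Ptgs2, which encodes the prostaglandin synthase COX-2, had 24.2, 22.5 and 24.6 FPKM in controls, 13.4, 13.9 and 15.9 under nintedanib, 14.6, 14.7 and 13.7 after radiation and 15.2, 12.8 and 14.2 in the combination. Its interaction was 0.66 (adjusted p = 0.101). Ndrg1, a gene induced by hypoxia, had 82.1 to 84.4 FPKM in controls and 57.7 to 65.5 in all 9 treated libraries (interaction 0.53, adjusted p = 0.0814). Mafk, a small MAF transcription factor, had an interaction of 0.70 and Has1, a hyaluronan synthase, of 0.66. None of these 4 passed the threshold. Reads of Mafk and of Tmem184a on the opposite strand cannot be told apart without strand-specific counting.

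Below 0 the smallest p was that of Usp2, a deubiquitinase. This ranking covers genes with a mean of at least 5 FPKM in the highest group, with predicted genes passed over. Usp2 had 2.38, 2.60 and 2.48 FPKM in controls, 4.85, 5.25 and 5.39 under nintedanib, 4.92, 4.95 and 4.89 after radiation and 6.40, 5.75 and 6.21 in the combination. The single treatments overlapped, and the combination lay above both by less than either had added (interaction −0.56, SE 0.09, adjusted p = 0.0814). Loxl2, a collagen cross-linking enzyme, had 2.60, 2.89 and 3.00, then 4.73, 4.11 and 4.33, then 7.08, 6.94 and 7.12, and 7.05, 7.09 and 6.84. Its level with both treatments overlapped that with radiation alone (interaction −0.50, adjusted p = 0.101).

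St3gal5, the synthase of the ganglioside GM3, had 4.14, 3.53 and 3.47 FPKM in controls, 16.6, 14.6 and 16.3 under nintedanib, 6.96, 7.46 and 7.98 after radiation and 17.4, 17.1 and 19.3 in the combination (interaction −0.68, adjusted p = 0.0939). The product of its single fold changes gave 31.8 FPKM, and the combination had 17.9. Pyroxd2, Olfml2b, Cpt2, Cep85, Ampd3 and Lctl had interactions of −0.61, −0.45, −0.55, −0.44, −0.58 and −0.90, with adjusted p of 0.112 to 0.162. Ampd3 and Lctl overlap Rnf141 and Zwilch on the opposite strand. Snord65, a small nucleolar RNA, had the lowest interaction of the genes named (−2.14, adjusted p = 0.153). It rested on 3 to 9 fragments in each of the other 9 libraries and on 0, 1 and 1 in the combination treatments.

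**Figure D2:**
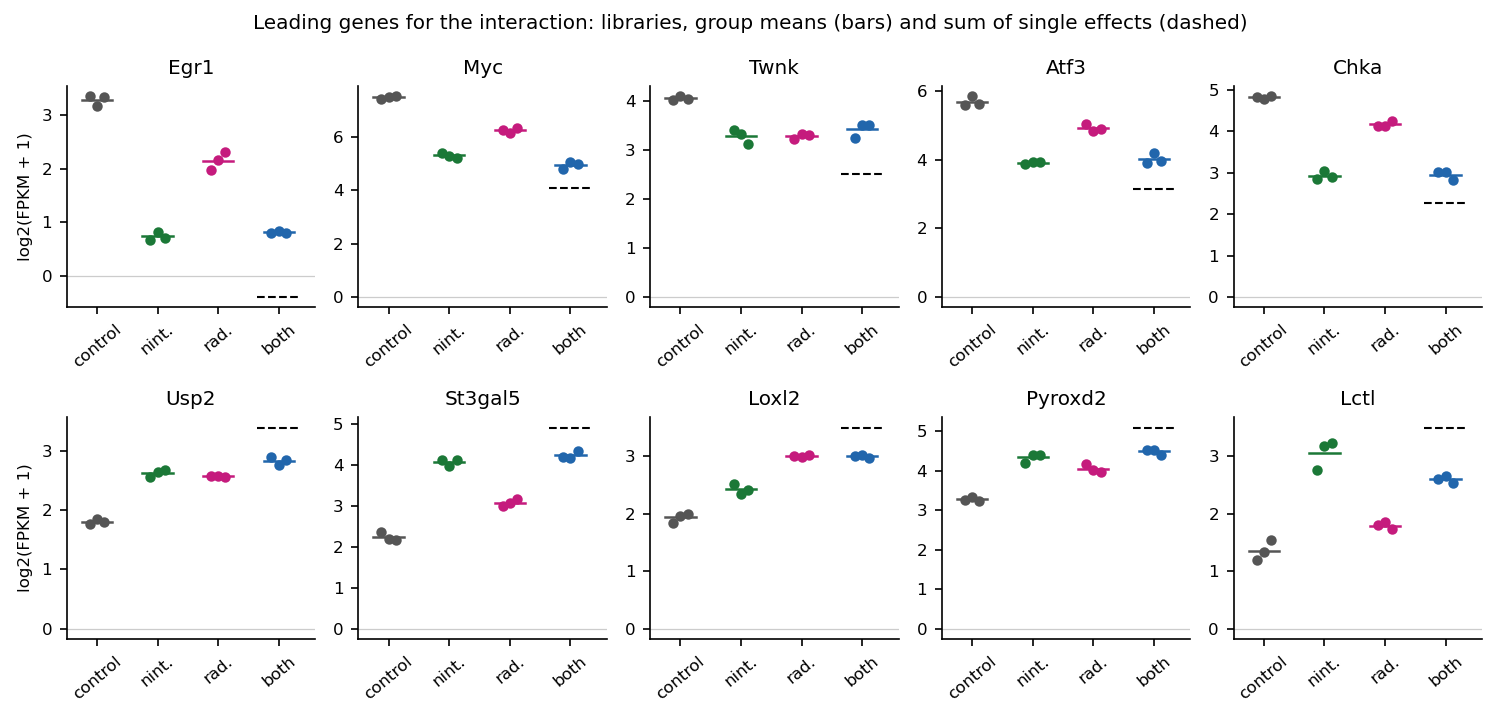
Log2(FPKM + 1) of 10 genes in each library (points) with group means (bars) and the sum of the single effects (dashed line) in the combination column. The combination lies above the dashed line for Egr1, Myc, Twnk, Atf3 and Chka and below it for Usp2, St3gal5, Loxl2, Pyroxd2 and Lctl, and the dashed line of Egr1 lies under the grey line at an FPKM of 0.

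Genes with large average effects were bounded less often than the 49.1% of all genes. Of 178 genes that nintedanib lowered at least 2-fold on average, 20.2% were bounded and the median interaction was 0.28, and of 177 that it raised these were 37.3% and −0.08. Of 21 genes that radiation raised at least 2-fold, 38.1% were bounded (median −0.21), and of 13 that it lowered none was (median 0.23). Those with the largest effects are described singly. Mvd and Acat2, enzymes of cholesterol synthesis, had average nintedanib effects above 2 log2 units. Mvd had 17.4, 21.7 and 17.0 FPKM in controls, 146, 108 and 97.4 under nintedanib, 13.7, 14.9 and 16.2 after radiation and 80.8, 71.6 and 142 in the combination. Its nintedanib effect was 2.57 in unirradiated and 2.57 in irradiated cells, and the interaction 0.004 had a 95% interval of −0.70 to 0.71. Wisp2, a matricellular protein, had 1.91, 2.04 and 1.66, then 12.3, 11.7 and 11.4, then 1.30, 1.56 and 1.25, and 9.60, 11.8 and 9.78. Its interaction of 0.10 was bounded within 0.5 (adjusted p = 0.0167). Id2, an inhibitor of basic helix-loop-helix factors, Psca and Acat2 had interactions of −0.13, 0.22 and −0.17 that were neither called nor bounded.

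Car6, a secreted carbonic anhydrase, had the lowest average nintedanib effect. It had 24.3, 31.2 and 21.6 FPKM in controls, 1.39, 1.40 and 1.63 under nintedanib, 35.9, 23.3 and 25.4 after radiation and 1.44, 2.50 and 1.49 in the combination. The drug effect was −3.42 in unirradiated and −3.37 in irradiated cells. Etv5, an ETS factor downstream of ERK, had −2.62 and −2.90, the opposite order to that of Egr1 (interaction −0.27, 95% interval −0.56 to 0.02). Angptl6, Sh2d6 and Cdsn had interactions of 0.02, 0.27 and −0.14.

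Aurka, the mitotic Aurora A kinase, was among the genes that radiation raised most. It had 53.9, 55.0 and 55.0 FPKM in controls, 52.2, 39.3 and 44.6 under nintedanib, 130.5, 111 and 118 after radiation and 92.9, 100.3 and 107 in the combination. Radiation added 1.12 without and 1.13 with the drug, and the interaction of 0.01 was bounded within 0.5 (adjusted p = 0.0135). Kif20a, a kinesin of cytokinesis, was bounded as well (−0.16, adjusted p = 0.0300), and it overlaps Cdc23 on the opposite strand. Acsbg1, an acyl-CoA synthetase, had 3.63, 3.74 and 3.73, then 1.24, 1.23 and 1.0, then 9.80, 9.78 and 10.7, and 3.41, 4.03 and 3.50. Its single effects of −1.12 and 1.24 were opposite, and the combination lay at −0.02 against control. The interaction of −0.13 was bounded within 0.5 (adjusted p = 0.0132).

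Ccl9, a chemokine, had 20.9 to 22.8 FPKM after radiation and 8.41 to 16.2 in the combination, with 3.84 to 4.39 in controls (interaction −0.50, 95% interval −1.05 to 0.06). Ifi27l2a, an interferon-induced gene, was highest with both (35.8, 50.8 and 43.0 FPKM, against 4.25 to 6.49 in controls), and its interaction was −0.38. H1f0, a linker histone, had 524, 665 and 555 FPKM in controls, 481, 432 and 460 under nintedanib, 237, 210.2 and 218 after radiation and 217, 273 and 202 in the combination (interaction 0.39). Among the other genes that radiation lowered most, Nppb, a natriuretic peptide, had 0.51, Rnu73b −0.05, and Slc19a1, the folate carrier, 0.67, the last with Col18a1 on the opposite strand.

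Genes were next sorted by the direction of their average effects. The average effects and the interaction are orthogonal contrasts of the balanced design. With equal spread in the groups the sorting would not by itself move the interaction, but the spread was not equal. Mean squared deviations from the group mean were 0.023 to 0.031 in controls and 0.035 to 0.055 under nintedanib. They were 0.027 to 0.031 after radiation and 0.030 to 0.037 in the combination. All 3 contrasts also use the same libraries, and the medians are descriptions. The 717 genes lowered by both treatments on average had a median interaction of 0.16. Nintedanib alone gave a median of −0.47, radiation alone −0.36 and the combination −0.70. At an unadjusted p under 0.05, 208 of them lay above 0 and 9 below. The 530 genes raised by both had a median of −0.15, with 0.52, 0.41 and 0.82 for drug, radiation and combination, and 13 above and 115 below.

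Both of these groups therefore moved less with the combination than the sum. Over the 23 other settings the median was 0.12 to 0.19 for genes lowered by both and −0.26 to −0.09 for genes raised by both. Under the common-sum rescaling, where the median of all genes was −0.10, the values were 0.12 and −0.23. Where the average effects were opposite, the medians were nearer to 0. The 354 genes raised by nintedanib and lowered by radiation had 0.03, and the 278 lowered by nintedanib and raised by radiation had −0.08. Genes with neither average effect called (5351) had 0.002. With only the nintedanib effect called, 2460 lowered genes had 0.08 and 2323 raised genes −0.04. At an unadjusted p under 0.05, 339 of the former lay above 0 and 50 below, and 81 and 190 of the latter. With only the radiation effect called, 504 lowered genes had 0.06 (62 above, 4 below) and 495 raised genes −0.10 (10 above, 61 below).

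**Figure D3:**
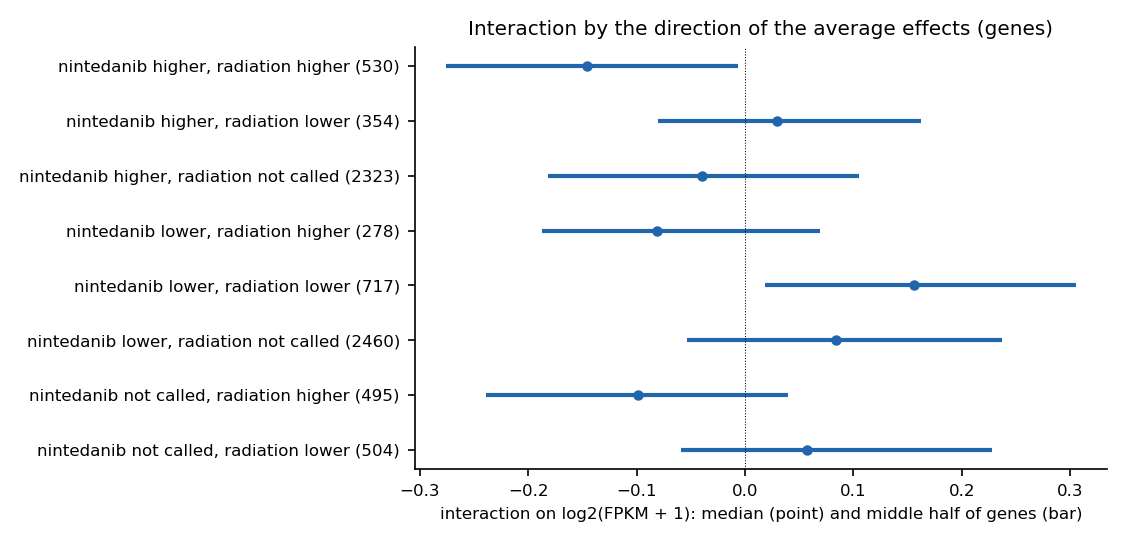
Interaction on log2(FPKM + 1) for genes sorted by the called direction of their average nintedanib and radiation effects, as median (point) and 25th to 75th percentile (bar), with the number of genes in parentheses. The 717 genes lowered by both treatments lie above 0 (median 0.16) and the 530 raised by both below (median −0.15).

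The departures were then followed in 26 gene lists. Each list is described by its median interaction and by its members at an unadjusted p under 0.05. Over all genes 7.85% lay above 0 and 5.1% below 0 at that p. Members counted above or below 0 passed that p, unless all estimates or the sign alone are named. For the average effects, nintedanib raised 24.6% and lowered 26.6% of all genes, and radiation raised 10% and lowered 12.1%. Apart from Egr1 no list member had a called interaction. Immediate early genes and ERK feedback regulators report on ERK activity in the cell, since ERK induces both. Nintedanib lowered 19 of 23 tested members on average and radiation lowered 10. The mean log2(FPKM + 1) of the list was 4.69 to 4.71 in controls, 3.32 to 3.54 under nintedanib, 4.21 to 4.42 after radiation and 3.39 to 3.48 in the combination, so the combination overlapped the drug alone. The median interaction was 0.34, with 11 members above 0 and none below.

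Besides Egr1 and Myc, Junb, an AP-1 subunit, had 50.8, 54.0 and 49.3 FPKM in controls, 22.01, 18.7 and 14.1 under nintedanib, 42.9, 36.6 and 46.9 after radiation and 27.5, 36.7 and 29.0 in the combination. The combination lay above the drug alone in all 3 libraries (interaction 1.03, adjusted p = 0.159), and Prdx2 lies on the opposite strand. Dusp5, a nuclear ERK phosphatase, had an interaction of 0.66 (adjusted p = 0.118).

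ATF4 is the transcription factor of the integrated stress response, which raises amino acid synthesis and transport when translation is slowed. All 37 tested members of its list were lower with nintedanib on average, and 10 were lower with radiation. The list mean was 5.97 to 6.07 in controls, 4.59 to 4.76 under nintedanib, 5.66 to 5.80 after radiation and 4.55 to 4.99 in the combination. The nintedanib effect had a median of −1.29 in unirradiated and −0.99 in irradiated cells. The median interaction was 0.28, with 14 members above 0, none below and 12 bounded within 0.5. Without nintedanib library 3 it was 0.22, with 11 above. Without combination library 1, 23 members lay above 0.

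Ppp1r15a, the phosphatase subunit that ends the response, had 57.0, 74.7 and 57.5 FPKM in controls, 14.0, 12.2 and 10.6 under nintedanib, 39.8, 30.4 and 32.7 after radiation and 13.0, 15.8 and 14.0 in the combination (interaction 1.06, adjusted p = 0.103). Atf4 itself had 394, 424 and 409, then 188, 161 and 149.98, then 322, 276 and 285, and 151, 208 and 196. The combination overlapped the drug alone, and the interaction was 0.62 (adjusted p = 0.248). Sesn2, a stress-induced regulator of mTORC1, had 0.72 (adjusted p = 0.206).

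Ribosome biogenesis genes, many of them MYC targets, were lower with nintedanib on average in 32 of 32 cases and lower with radiation in 18. The list mean was 5.34 to 5.46 in controls, 4.21 to 4.54 under nintedanib, 4.91 to 4.96 after radiation and 4.14 to 4.40 in the combination. The sum of the single effects had a median of −1.52 and the combination of −1.10, and the median interaction was 0.34, with all 32 estimates above 0, 16 of them at an unadjusted p under 0.05. That number was 27 without nintedanib library 1, 10 without control library 2, nintedanib library 2 or combination library 3, and 8 after rescaling to a common sum. Polr1b, a subunit of RNA polymerase I, had 21.1, 21.7 and 21.0 FPKM in controls, 9.26, 7.73 and 7.20 under nintedanib, 10.3, 10.6 and 11.7 after radiation and 5.58, 5.40 and 6.78 in the combination. All 4 groups were separate, with an interaction of 0.52 (adjusted p = 0.214). Wdr43, Utp4 and Rrp1b, factors of small or large subunit assembly, had 0.37, 0.52 and 0.36.

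Cytosolic ribosomal protein genes had a median of 0.32, with 14 of 45 above 0 at an unadjusted p under 0.05 and none below. That count was 5 without control library 2, radiation library 2 or combination library 2 or 3, 7 without radiation library 3, 9 without control library 3 or nintedanib library 3, 27 without combination library 1, and 8 after rescaling to a common sum. Their mean level was 8.08 to 8.39 in controls, 7.69 to 7.89 under nintedanib, 7.94 to 8.15 after radiation and 7.75 to 8.06 in the combination. The combination overlapped each single treatment. Rps7 had 0.54, Rpl13a 0.62 and Rpl10a 0.51, with adjusted p of 0.253 to 0.289. Many of these genes have processed copies elsewhere in the genome, which the counting could split.

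Replication-dependent histone genes had a median of 0.44, over 21 tested of 54, with 7 above 0 and none below. Over the other settings the median ran from 0.30, without radiation library 2, to 1.11, with an FPKM of at least 5 in 3 libraries. Nintedanib raised 4 of them on average and lowered 5, and radiation lowered 4. Over all genes nintedanib raised 24.6% and lowered 26.6%, and radiation lowered 12.1%. Hist1h1c, a linker histone, had 90.4, 92.0 and 97.5 FPKM in controls, 45.3, 41.7 and 37.9 under nintedanib, 45.5, 36.5 and 49.5 after radiation and 39.6, 53.6 and 35.8 in the combination. The 3 treated groups overlapped below the controls, and the interaction was 1.11 (adjusted p = 0.107). Hist1h2bc had 1.14, Hist1h2bg 0.96 and Hist1h4k 1.23. These messages mostly end without a poly(A) tail and come in near-identical copies, so their levels are uncertain.

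G2/M and mitosis genes, which serve spindle assembly and division, had a median of −0.21, with 4 of 35 above 0 by sign alone. At an unadjusted p under 0.05, 14 of the 35 lay below 0 and none above. Radiation raised 32 of them on average and nintedanib lowered 18. The list mean was 4.95 to 5.02 in controls, 4.77 to 5.03 under nintedanib, 5.74 to 5.78 after radiation and 5.45 to 5.49 in the combination. The combination thus lay above all controls and below all libraries with radiation alone. The radiation effect had a median of 0.77 without and 0.57 with the drug. At an unadjusted p under 0.05, 7 members lay below 0 without control library 2 and 9 without nintedanib library 1. Without nintedanib library 3, radiation library 2 or combination library 2 or 3, 8 did. After common-sum rescaling 20 did.

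Aspm, a spindle pole protein, had 16.7, 13.0 and 16.3 FPKM in controls, 16.6, 15.2 and 17.3 under nintedanib, 33.6, 37.3 and 38.6 after radiation and 29.6, 23.6 and 23.8 in the combination (interaction −0.59, adjusted p = 0.224). Nusap1, which bundles spindle microtubules, had −0.40, Pbk, a mitotic kinase, −0.37, and Prc1, a bundler of the central spindle, −0.33. Nusap1 and Prc1 overlap Oip5 and Rccd1 on the opposite strand. DNA replication genes had −0.05, with 1 of 37 above and none below at an unadjusted p under 0.05. After common-sum rescaling they had −0.17, with none above and 6 below. The homologous recombination and Fanconi genes had −0.09 (none above and 2 of 32 below, Fancd2 and Rad51c, with interactions of −0.26 and −0.38, and none without nintedanib library 3). After common-sum rescaling this list had −0.21, with 4 below.

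Interferon-stimulated genes, which respond to type I interferon and to sensing of nucleic acids, were raised by nintedanib in 18 of 29 cases on average and by radiation in 10. The list mean was 2.15 to 2.21 in controls, 2.51 to 2.72 under nintedanib, 2.48 to 2.52 after radiation and 2.71 to 2.86 in the combination. The median interaction was −0.16, with 6 below 0 and none above, and with 10 below without nintedanib library 1. Oas1a, which makes the activator of RNase L, had 1.85, 1.72 and 1.87 FPKM in controls, 3.84, 3.41 and 3.71 under nintedanib, 3.6, 3.24 and 3.28 after radiation and 4.69, 4.67 and 4.62 in the combination. The combination was the highest group and its interaction was −0.35 (adjusted p = 0.224). Ifit2, Samd9l and Irf1 had −0.44, −0.55 and −0.25, and that of Irf1 was bounded within 0.5 (adjusted p = 0.0231).

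MHC class I antigen presentation genes had a median of −0.08 and 1 of 22 below 0, Psme2, a proteasome activator, at −0.47. After common-sum rescaling the median was −0.21, with 6 below. Radiation raised 14 and nintedanib 10 of them on average. The list mean was 4.40 to 4.56 in controls, 4.65 to 4.70 under nintedanib, 4.78 to 4.83 after radiation and 4.89 to 5.04 in the combination, so the 4 groups did not overlap.

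Cholesterol synthesis genes, the targets of SREBP2, had the largest median nintedanib effect of the raised lists, 1.49 in unirradiated and 1.47 in irradiated cells. Nintedanib raised 24 of 25 on average. The median interaction was −0.02 and none of the 25 had an unadjusted p under 0.05. The bound of 0.5 was reached by 7 of the 25, compared with 49.1% of all genes. The list mean was 3.98 to 4.04 in controls, 5.33 to 5.58 under nintedanib, 3.76 to 3.98 after radiation and 5.03 to 5.64 in the combination. Lysosome and autophagy genes, of which nintedanib raised 32 of 38 on average, had a median of 0.13, with 9 above and 1 below. Without control library 2 or radiation library 2, 5 lay above. After common-sum rescaling that median was −0.002, with none above and 3 below, so its direction depended on the scaling. Atp6v0d1, a proton pump subunit, had an interaction of 0.38 and Flcn, the folliculin of lysosomal nutrient sensing, of 0.30.

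**Figure D4:**
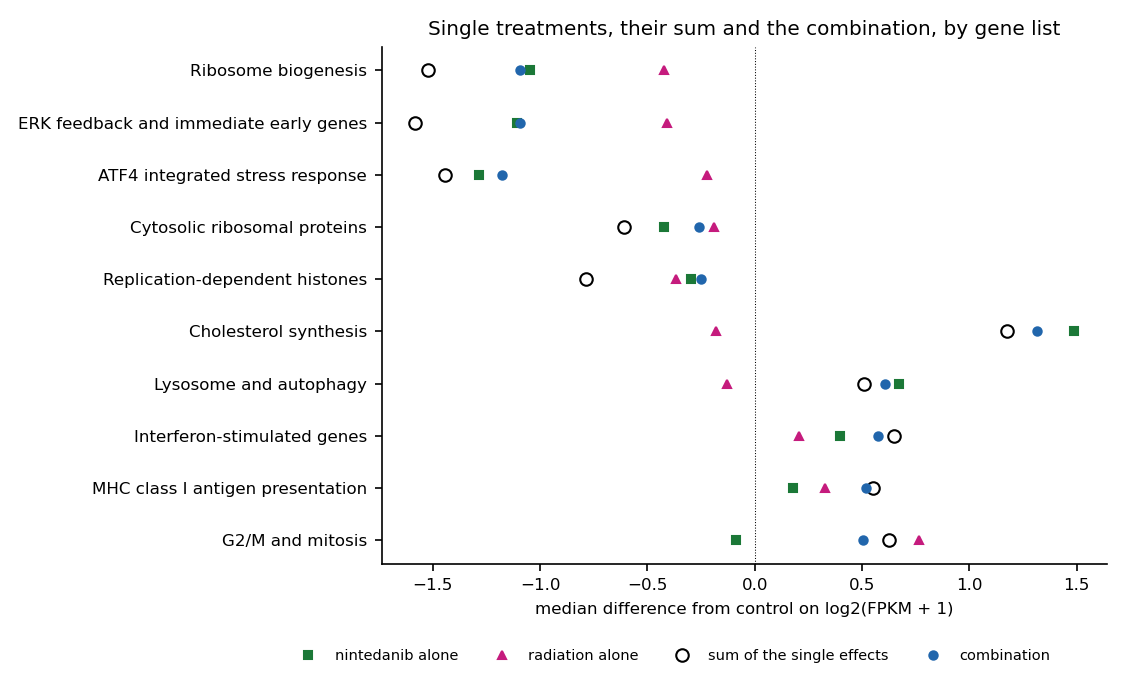
Median difference from control on log2(FPKM + 1) for 10 gene lists with nintedanib alone (squares), radiation alone (triangles), the sum of both single effects (open circles) and the combination (filled circles). For ribosome biogenesis the combination lies at −1.10 and the sum at −1.52, and for MHC class I genes they lie at 0.52 and 0.55.

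Promoters of 8 lists were searched for a known motif each, and sequences of 3 lists are shown. RefSeq promoters (GRCm38.p6, 250 bases before to 50 after the start) were searched on both strands. The ATF4 composite element TGATGNAA was in 10 of 30 matched members of the ATF4 list (33.3%) and in 4.51% of 27025 genes. The cell cycle homology region TTTGAA was in 21 of 27 G2/M genes (77.8%) and in 20.2% of all genes. The core of the interferon-stimulated response element, GAAANNGAA, was in 15 of 23 interferon-stimulated genes (65.2%) and in 9.76% of all. Matches of a motif can overlap one another, and a match is a description, not a site of binding. Below, 2 members of each list are shown 5′ to 3′ on the strand of the gene, with the match in capitals (its reverse complement where it lies on the opposite strand). Atf3, Prc1 and Oas1a were named above, and Asns, Ccnb2 and Ifit3 were chosen after their values were seen.
Atf3, chr1:191183410-191183469, minus strand: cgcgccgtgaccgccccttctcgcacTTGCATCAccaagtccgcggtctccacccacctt
Asns, chr6:7693210-7693258, minus strand: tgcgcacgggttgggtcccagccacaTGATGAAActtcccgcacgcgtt
Prc1, chr7:80294420-80294475, plus strand: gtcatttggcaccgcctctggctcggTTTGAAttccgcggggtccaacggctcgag
Ccnb2, chr9:70421690-70421747, minus strand: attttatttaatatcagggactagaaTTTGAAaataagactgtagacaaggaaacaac
Oas1a, chr5:120907526-120907571, minus strand: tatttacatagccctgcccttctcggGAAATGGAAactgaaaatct
Ifit3, chr19:34583348-34583408, plus strand: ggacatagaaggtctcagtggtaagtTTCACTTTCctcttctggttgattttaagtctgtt

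The estimates of members with the same motif are set side by side here, and no difference between members was tested. Atf3, Prc1 and Oas1a had been named for a small interaction p, so larger values for them follow from the choice. Asns, the asparagine synthetase, had 0.17 (adjusted p = 0.654) where Atf3 had 0.88, and Ifit3 had −0.11 where Oas1a had −0.35. Ccnb2, the cyclin B2 of mitotic entry, had −0.21 (adjusted p = 0.478) beside −0.33 for Prc1. The kB, hypoxia response, SREBP, TFEB and AP-1 motifs were searched in the same way in their lists. The TFEB motif TCACGTGA was in 6 of 31 lysosomal genes (19.4%) and 1.12% of all, and the hypoxia motif TACGTG in 8 of 29 (27.6%) and 3.67%. The SREBP motif TCACNCCA was in 3 of 18 (16.7%) and 4.97%, the kB motif GGGANTTCC in 2 of 15 (13.3%) and 1.92%, and the AP-1 motif TGANTCA in 1 of 13 ERK genes (7.69%) and 8.97%.

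Metabolic and redox lists had small positive medians. Glycolysis and hypoxia genes had 0.14 (4 of 33 above, none below), or 0.007 after common-sum rescaling, led by Ndrg1, Slc2a1, the glucose transporter GLUT1, with 0.56, and Hk2, a hexokinase, with 0.56. NRF2, glutathione and ferroptosis genes had 0.16 (4 of 26 above, none below), or 0.03 with none above or below after common-sum rescaling, among them Gclc, the rate-limiting enzyme of glutathione synthesis, with 0.42 and Nfe2l2, which encodes NRF2, with 0.44. Endoplasmic reticulum chaperones had −0.09 (4 of 22 below, none above), or −0.23 after common-sum rescaling, with Edem1 at −0.31, bounded within 0.5 (adjusted p = 0.0437), and Hsp90b1 at −0.30. Mitochondrially encoded genes had −0.17 (1 of 13 below), and −0.02 without nintedanib library 3, which had the highest mitochondrial share.

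Among growth arrest and death genes, p53 targets had 0.10 (9 of 29 above and 1 below), and −0.03 after common-sum rescaling, with 6 above and 4 below. Without nintedanib library 3, 5 lay above 0. Plk2 and Plk3, stress-induced polo-like kinases, had 0.45 and 0.69, and Bbc3, which encodes PUMA, had 32.1, 40.8 and 33.5 FPKM in controls, 16.8, 17.6 and 11.6 under nintedanib, 18.6, 16.1 and 17.4 after radiation and 11.6, 16.2 and 11.5 in the combination (interaction 0.78, adjusted p = 0.259). Cdkn1a, the inhibitor p21, had 28.9, 33.6 and 29.0, then 22.98, 16.7 and 18.6, then 33.1, 31.5 and 34.2, and 23.5, 30.1 and 30.6. Its interaction was 0.40 (adjusted p = 0.367). CDK inhibitor and senescence genes had 0.005 (−0.13 after common-sum rescaling) and apoptosis genes −0.03 (−0.15).

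Signals to other cells were mixed. Chemokine, cytokine and NF-kB genes had 0.14 (5 of 22 above, none below), or 0.04 with 3 above and 1 below after common-sum rescaling. The NF-kB subunits Relb, Rela and Nfkb2 had 0.51, 0.53 and 0.33. Checkpoint and co-stimulatory ligands had −0.01, with members on both sides. Icosl, the ICOS ligand, had 3.6, 3.59 and 3.6 FPKM in controls, 1.21, 1.16 and 1.31 under nintedanib, 3.15, 2.96 and 3.07 after radiation and 1.76, 1.83 and 1.99 in the combination. The combination lay above the drug alone in every library (interaction 0.54, adjusted p = 0.106). Ulbp1, an NKG2D ligand, Cd276 and Tnfrsf14 had −0.53, −0.32 and −0.70. Of the genes of these last lists, Slc2a1, Hsp90b1, Nfkb2 and Ulbp1 also have a gene on the opposite strand, whose reads cannot be told apart from theirs.

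A list of nintedanib's target receptors and other kinases had a median of −0.05 over the 7 of 19 tested. Its members Met and Axl are not among the VEGF, FGF and PDGF receptors. Pdgfra, the PDGF receptor alpha, had 2.67, 2.20 and 2.50 FPKM in controls, 4.86, 5.52 and 5.81 under nintedanib, 3.06, 3.91 and 3.66 after radiation and 5.14, 4.88 and 4.18 in the combination. The interaction was −0.55 (adjusted p = 0.206), and the combination overlapped the drug alone. Src, Met and Axl had 0.31, −0.21 and 0.14, the last bounded within 0.5 (adjusted p = 0.0118). VEGF, PDGF and FGF ligands had 0.02 (−0.11 after common-sum rescaling), with Vegfa at 0.31 and Vegfb at 0.46. TGF-beta and matrix genes had −0.02, with 5 of 32 above and 3 below, or −0.16 with 3 above and 5 below after common-sum rescaling. ID and BMP genes had −0.12 with none of 12 at an unadjusted p under 0.05. After common-sum rescaling the ID and BMP genes had −0.25, with 2 below. YAP and TAZ targets had −0.09, with Amotl1 at −0.47 and Ankrd1 at 0.36.

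**Figure D5:**
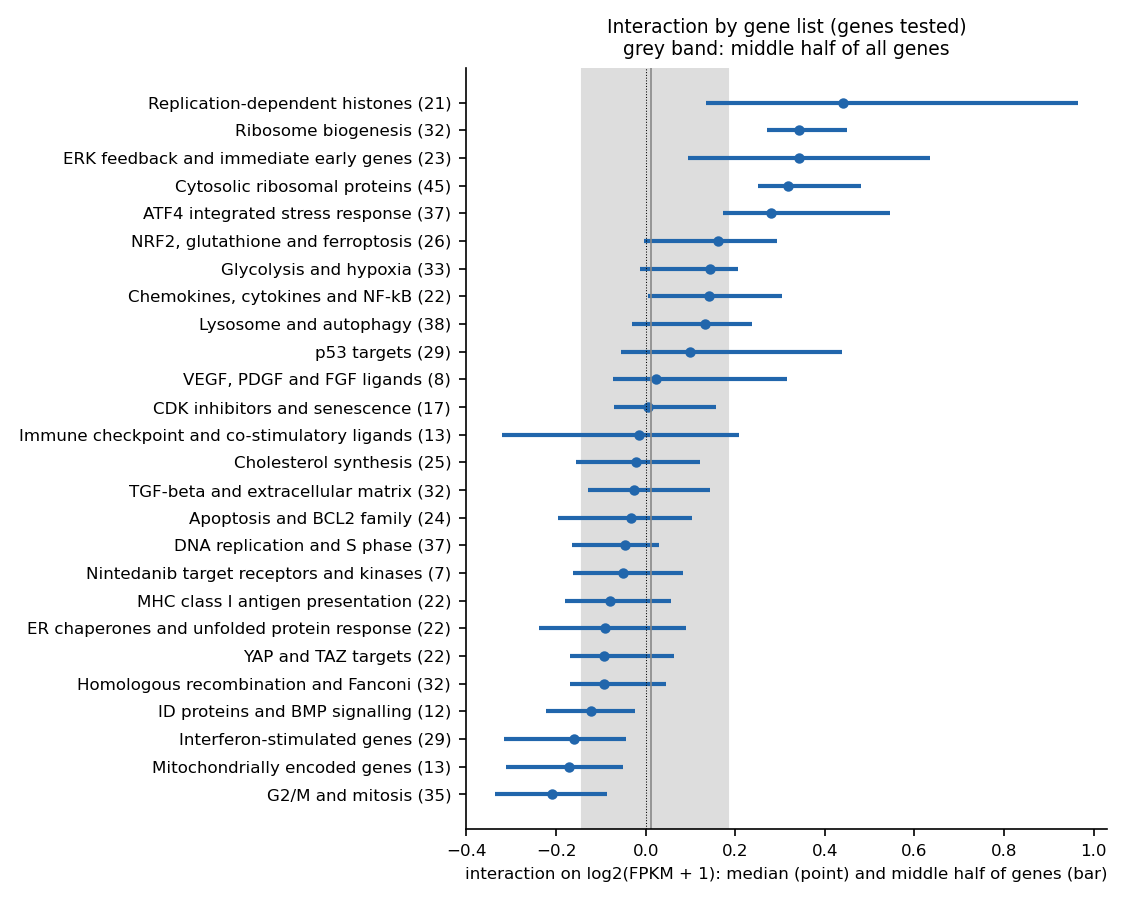
Interaction on log2(FPKM + 1) in 26 gene lists, as median (point) and 25th to 75th percentile (bar), with the number of genes tested in parentheses and the same percentiles of all 13012 genes as a grey band. Histones (0.44), ribosome biogenesis (0.34), ERK genes (0.34), ribosomal proteins (0.32) and ATF4 genes (0.28) have the highest medians, and G2/M genes (−0.21) the lowest.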

How the data were processed

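RNA-seq of 12 MC38 libraries was analysed. The authors deposited FPKM values for 54532 genes with identifiers, coordinates and gene lengths, per the file headers. Coordinates are on GRCm38, or mm10, as named in the submitters' processing notes, and libraries came from a SMARTER mRNA kit, per the labels' protocols. Which aligner, counter and strand setting were used is not given in the sources used here. The values contain a scaling per library that these sources do not describe.

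Multiplied by gene length, 100% of nonzero values were whole multiples of 1 fragment within 0.01, which gave the fragment totals. These describe counting error only. Per kilobase, 1 FPKM stood for 16.4 to 18.7 fragments. Replicates were checked for duplicates (chi-square per gene 4.30 to 30.2 in 12 pairs, so all were kept).

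Genes reaching 1 FPKM in 3 or more libraries were fitted on log2(FPKM + 1), which understates changes of low genes, with limma 3.58.1 in R 4.3.3 (empirical Bayes with trend, two-sided, 8 residual degrees of freedom, 1 mean per group). The bound of 0.5 used the larger p of 2 one-sided tests from that fit. Benjamini-Hochberg adjustment ran over all 13012 genes. The fit was tested on simulated data. Matching of promoters and figures used Python 3.11.15, pandas 2.3.3 and matplotlib 3.10.9. Replicate numbers were not used to pair the groups in the main fit. The design text speaks of independent repeats of the experiment.

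Members, lists and tests were chosen with earlier results of these data known. Named were genes called or with the smallest p in each direction (up to 10, with a mean of at least 5 FPKM in the highest group, predicted genes passed over), the 5 highest and 5 lowest average effects, and up to 4 members per list by interaction p. Some genes that the rule names are not reported here. Alternatives changed the pseudocount, the filter, the scaling, the scale, the biotype, the weighting, the block and the libraries used.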

Additional observations from a re-analysis of the deposited data

Results flagged for a closer look

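Egr1 was singled out because the effect of nintedanib differed between irradiated and unirradiated cells by the test of the difference itself. The interaction was 1.21 on log2(FPKM + 1) (adjusted p = 0.0281, limma), with a nintedanib effect of −2.55 without and −1.34 with radiation. The sum of the single effects lay at −0.24 FPKM, a level that no library can have. Groups of 3 libraries were too small for the search for single outlying libraries.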

How the results depend on the processing

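The interaction was called for 0 genes with a pseudocount of 0.1, 12 without the filter on low values (30404 genes tested), 3 with an FPKM of at least 5, 4 after common-sum rescaling, 4 among protein-coding genes, 39 with library weights, 20 with voom on recovered fragments, 58 on the linear scale, 0 with fragment-total rescaling (added after the data were seen) and 0 to 5 with 1 library left out. The cause was not tested. Genes bounded within 0.5 numbered 4081 with the lower pseudocount, 20149 without the filter and 4225 with voom, and the linear scale gives no such count. The library weights ran from 0.41 for nintedanib library 3 to 3.81 for control library 3, with 0.54 to 1.64 elsewhere. They gave 2772 genes at an unadjusted p under 0.05 and 4452 for radiation without drug. With 1 library left out these 2 counts were 1142 to 2529 and 1145 to 2606, and radiation with drug gave 269 to 652.

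The replicate block gave 0 called interactions and 444 genes for radiation with drug. Same-numbered libraries correlated at −0.30 to 0.20 in their deviations, 3 of 18 pairs over 0.1. Differently numbered pairs were not compared, so these values cannot tell whether same-numbered libraries share a repeat. Common-sum rescaling moved the share of calls that were higher from 44.8 to 69.7% for radiation without drug, 47.2 to 59.99% for nintedanib in unirradiated cells and 45.3 to 58.3% for average radiation. Egr1, the 1 gene called in the main fit, kept its sign under every alternative run. The medians of the p53, lysosome, ligand and CDK inhibitor lists changed sign with common-sum rescaling. Medians of other lists near 0 also changed sign, that of the checkpoint ligands in 7 of 23 settings. Among values of single genes and lists, 3696 stayed on their side of the threshold or within the spread, 74 newly passed, 12 no longer passed and 93 moved. All 12 were values of Egr1, whose call was made in 11 of 23 other settings on the log scale. Genes not called in the main fit could not be counted as no longer passing. The share of genes bounded was smallest under 5 FPKM (32.8%), and what depth contributes was not tested.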

Other observations

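Additivity was also tested on the linear scale. On the linear scale, where FPKM differences rather than fold changes add up, 58 genes were called, 54 of them also at an unadjusted p under 0.05 on the log scale. For 22 of the 58 the linear sum lay below 0 FPKM, as for Myc, at −63.3 FPKM against a measured 29.8. Of the 1685 genes at an unadjusted p under 0.05 on the log scale, 1394 (82.7%) were so with the same sign on the linear scale, which is 74.7% of the 1867 found there, and 0 had the opposite sign.

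Acsbg1 was bounded within 0.5 on the log scale and was called on the linear scale. Its linear sum was 7.55 FPKM, the product of its fold changes 3.17 FPKM and the measured combination 3.65 FPKM (linear adjusted p = 0.00421, limma). Spp1, which encodes osteopontin, had a combination near the linear sum. It had 122, 133 and 125 FPKM in controls, 34.4, 35.2 and 46.1 under nintedanib, 208, 174 and 157 after radiation and 94.8, 100.5 and 95.2 in the combination. The linear sum was 91.1 FPKM (linear adjusted p = 0.876, with no bound computed), whereas the product was 54.6 FPKM and the log interaction 0.83 (adjusted p = 0.150).

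Acta2, the smooth muscle actin, had a higher level in the combination than in any other group. It had 5.78, 7.98 and 8.55 FPKM in controls, 10.3, 7.78 and 8.50 under nintedanib, 8.31, 9.52 and 8.76 after radiation and 16.6, 15.9 and 20.1 in the combination. The first 3 groups overlapped and the combination lay above all of them. Its interaction of 0.68 did not pass the threshold (adjusted p = 0.250, and 0.101 on the linear scale). Acsbg1, Spp1 and Acta2 were picked here after their values were seen.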
